A study of Homo sapiens with 6 samples.

Results

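The miRNA content of A549 and BEAS-2B cells was compared after both lines had been exposed to TGF-β1 at the same dose. The libraries were chosen by their labels, as those from cells given TGF-β1 at 5 or 1 ng/mL for 48 h, which were 4 of the 6 libraries of the series. A549 is a lung carcinoma epithelial line and BEAS-2B is a bronchial epithelial line that was immortalised from non-cancerous tissue, and the label gives the genotype WT for both. The A549 library at each dose was set against the BEAS-2B library at that dose, across all 2588 mature miRNAs counted. The 2 untreated libraries, one for each line, gave the line difference without the cytokine. The labels give an RPMI medium with serum for growth and a low-serum one during the TGF-β1 treatment. Whether untreated cells were moved to the low-serum medium is not stated, so the untreated comparison may differ in medium as well as in the cytokine. Each line stands for 1 established culture and not for tumour or normal airway epithelium in general, and a line difference here is a difference between these 2 lines.

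A miRNA is a short RNA that is cut from a hairpin precursor and guides silencing of messenger RNAs, which it recognises mainly through its seed, the bases 2 to 8 of its own sequence. TGF-β1 acts through its receptors and SMAD proteins, drives epithelial cells toward a mesenchymal state, and is a central cytokine of fibrosis in the lung. Cell lines also carry miRNA profiles of their own, which in general reflect the tissue they came from and, in tumour lines, changes to the genome.

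With 1 library in each group, values have no replicate error, and a comparison at 1 dose has no test. The test of the line over both doses described further on takes its error from the disagreement between doses. Intervals are exact 95% Clopper-Pearson intervals of the 2 counts compared, and they cover counting error only, since reads without molecular identifiers are not independent molecules. Total counts ranged from 633318 to 900424, and from 902 to 1031 miRNAs had a count in a library. A single miRNA, miR-21-5p, held 47.6% to 57.2% of the counts in the treated libraries and 35.4% in the untreated BEAS-2B library, whose scaling factor of 1.32 stood apart from the 0.829 to 1.02 of the others. Counts were normalised by the trimmed mean of M-values (TMM) over all 6 libraries. A log2 ratio is the difference, A549 minus BEAS-2B, of log2(normalised count + 1), called the normalised data value (ND), so positive values mean higher in A549. A miRNA was tested at a dose if the greater of the 2 ND values was at least 8, which is a normalised count of 255, and it was called if the difference was at least 1.4-fold. Names are given without the prefix hsa.

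The sequences that carried the largest line differences are printed first, from RefSeq on GRCh38.p14, 5′ to 3′ and with the seed in capitals. The first set was higher in BEAS-2B cells at both doses. It holds miR-155-5p, the pair miR-146a-5p and miR-146b-5p with 1 shared seed, and miR-15b-5p, miR-16-5p and miR-424-5p with another.
miR-155-5p: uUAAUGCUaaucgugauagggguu
miR-146a-5p: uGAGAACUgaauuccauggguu
miR-146b-5p: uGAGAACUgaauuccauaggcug
miR-15b-5p: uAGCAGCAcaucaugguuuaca
miR-16-5p: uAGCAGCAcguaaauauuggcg
miR-424-5p: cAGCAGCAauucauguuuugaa
miR-210-3p: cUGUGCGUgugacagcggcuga
miR-152-3p: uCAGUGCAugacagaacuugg
Each of the 3 tested miRNAs with the seed AGCAGCA was called higher in BEAS-2B cells at both doses. Of all tested miRNAs, 29.5% were so called at 5 ng/mL and 25.9% at 1 ng/mL. Only miR-16-5p of the 3 reached an ND of 8 in both lines. The others were tested through BEAS-2B alone, which favours their direction. Counted from 1 at the 5′ end, the aligned first 22 bases of miR-146a-5p and miR-146b-5p differ by G18A and U21C.

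The second set was higher in A549 cells at both doses. It holds miR-192-5p and miR-215-5p, which share a seed, with their cluster partner miR-194-5p, then miR-9-5p, the smooth-muscle miRNA miR-143-3p, and 4 miRNAs of the imprinted DLK1-DIO3 region.
miR-192-5p: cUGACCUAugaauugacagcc
miR-215-5p: aUGACCUAugaauugacagac
miR-194-5p: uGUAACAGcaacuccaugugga
miR-9-5p: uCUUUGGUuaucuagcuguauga
miR-143-3p: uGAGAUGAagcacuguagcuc
miR-543: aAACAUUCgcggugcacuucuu
miR-381-3p: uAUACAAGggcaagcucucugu
miR-409-3p: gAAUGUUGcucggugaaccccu
miR-654-3p: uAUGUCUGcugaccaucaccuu
The 4 miRNAs of the DLK1-DIO3 region have 4 different seeds. miR-192-5p and miR-215-5p differ by C1A and C20A, so the seed is the same in both.

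The third set is of miRNAs whose line difference had the opposite sign once TGF-β1 was present, or which parted only under TGF-β1, and miR-335-5p is shown as the other arm of miR-335-3p.
miR-335-3p: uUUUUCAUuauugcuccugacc
miR-335-5p: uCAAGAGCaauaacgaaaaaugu
miR-4521: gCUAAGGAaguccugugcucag
miR-374b-5p: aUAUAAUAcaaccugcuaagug
miR-339-5p: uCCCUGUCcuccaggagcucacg
miR-106b-5p: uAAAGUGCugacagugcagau
miR-17-5p: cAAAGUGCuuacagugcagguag
miR-20a-5p: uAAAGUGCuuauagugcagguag
miR-93-5p: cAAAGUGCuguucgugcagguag
miR-340-5p: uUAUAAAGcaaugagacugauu
The arms of the miR-335 hairpin have unrelated seeds, whereas miR-106b-5p, miR-17-5p, miR-20a-5p and miR-93-5p share the seed AAAGUGC although they come from different clusters.

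Under TGF-β1 the lines differed in most of the abundant miRNAs. At 5 ng/mL, 99 of the 146 tested miRNAs were called, which is 67.8%. Of these, 56 (38.4% of those tested) were higher in A549 cells and 43 (29.5%) were higher in BEAS-2B cells. At 1 ng/mL, 92 of 143 were called (64.3%), with 55 (38.5%) higher in A549 and 37 (25.9%) higher in BEAS-2B. The untreated libraries gave 93 of 135 (68.9%), with 55 (40.7%) and 38 (28.1%). Which line held more calls depends on the scaling. Total count gave 37 and 54 at 1 ng/mL and quantile normalisation 44 and 50, and at 5 ng/mL no scaling gave 45 and 58 and quantile normalisation 45 and 59, for A549 and BEAS-2B in that order. Large differences leaned toward A549 cells, where 25 miRNAs at each dose were at least 4-fold higher, against 7 in BEAS-2B cells at 5 ng/mL and 6 at 1 ng/mL. Counting error was small beside these differences, since 82 of the 99 intervals at 5 ng/mL and 76 of the 92 at 1 ng/mL lay wholly beyond 1.4-fold. Among the 94 miRNAs that reached an ND of 8 in both lines, 50 were called at the higher dose and 48 at the lower. The other 49 and 44 calls were of miRNAs that reached it in 1 line only, for which the rule itself favours a difference.

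**Figure D1:**
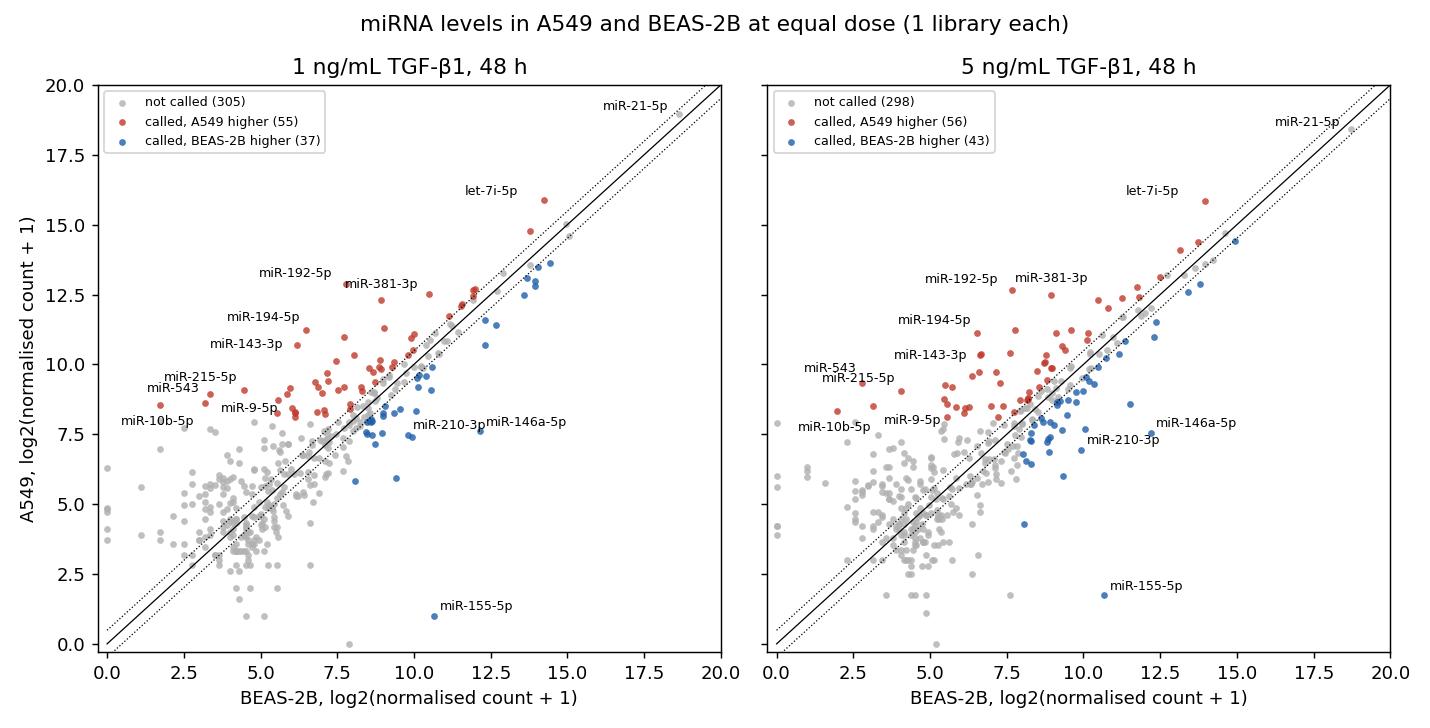
Level of each of 397 miRNAs in BEAS-2B (x axis) and A549 (y axis) cells, as log2(normalised count + 1), at 1 ng/mL (left) and 5 ng/mL (right) of TGF-β1; each point is 1 miRNA and each axis 1 library. Red points are the 55 and 56 called higher in A549, blue points the 37 and 43 called higher in BEAS-2B, dotted lines mark 1.4-fold, and miR-155-5p lies lowest among the blue points at both doses.

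The doses gave nearly the same picture of the lines. No library is shared between the comparisons at 5 and at 1 ng/mL. Of 140 miRNAs tested at both, 121 had the same sign, 76 (54.3%) were called the same way and 0 in opposite directions. The 76 were 48 higher in A549 and 28 higher in BEAS-2B. A further 23 were called at 5 ng/mL alone and 16 at 1 ng/mL alone. The ratio at one dose differed from that at the other by a median of 0.34 on the log2 scale and by 0.89 at the 90th percentile. In all 76 the mean ratio exceeded the gap between doses, which the choice of miRNAs called at both doses favours. Across the 140 miRNAs Pearson's r between doses was 0.962 and Spearman's rho 0.914, given as a description because both doses come from the same lines.

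A test of the line term was added after the data had been seen, in which the libraries were paired by dose (edgeR's quasi-likelihood test with dose as a block, over the 4 treated libraries). At a Benjamini-Hochberg adjusted p under 0.05 it called 173 of 397 miRNAs (43.6%), of which 115 (29%) lay on the A549 side and 58 (14.6%) on that of BEAS-2B. Of the 76 miRNAs called the same way at both doses 74 passed, and the exceptions were miR-30d-5p (adjusted p = 0.053) and miR-106b-3p (adjusted p = 0.0584). miR-155-5p, miR-146a-5p and miR-192-5p each had an adjusted p of 0.000523. The 76 were chosen by their ratios in these same 4 libraries. That choice favoured passing, so the passing of the 76 is no separate support. The fit has 1 residual degree of freedom and takes most of its error from a spread shared among miRNAs. Its p-values measure only the spread between these libraries, which may be technical.

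The immune-associated miRNAs miR-155-5p and miR-146a-5p were the leading BEAS-2B miRNAs. miR-155-5p, a regulator of inflammatory signalling and of lymphocytes, was counted 2874 times without TGF-β1, 1390 times at 1 ng/mL and 1666 times at 5 ng/mL in BEAS-2B cells. In A549 cells it was counted 0, 1 and 2 times in the same order. This miRNA was close to absent from A549 cells in all 3 libraries and abundant in all 3 of BEAS-2B. At 5 ng/mL the log2 ratio was -8.94, with an interval from -12.50 to -7.60, and at 1 ng/mL it was -9.65, with one from -15.95 to -8.17. Without TGF-β1, the count of 0 in A549 cells allows up to 3 counts, so the level was at least 708-fold higher in BEAS-2B. The mature sequence lies at chr21:25573983-25574006 (GRCh38.p14, plus strand), in an exon of MIR155HG, its host transcript.

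miR-146a-5p, which dampens signalling downstream of Toll-like receptors, was counted 160 times in A549 and 4760 times in BEAS-2B cells at 5 ng/mL. At 1 ng/mL the counts were 193 and 3950, and without TGF-β1 they were 255 and 6168. The level in BEAS-2B cells was 24.9-fold higher at 5 ng/mL, 23.5-fold at 1 ng/mL and 17.8-fold without TGF-β1. Its seed partner miR-146b-5p was counted 55 and 657 times at 5 ng/mL and 60 and 590 times at 1 ng/mL, with log2 ratios of -3.31 and -3.48. The hairpins are on different chromosomes, at chr5:160485352-160485450 in an exon of MIR3142HG and at chr10:102436512-102436584. miR-146b-5p amounted to 30.2% to 34.4% of miR-146a-5p in the A549 libraries and to 13.8% to 14.9% in those of BEAS-2B, so both members were lower in A549 cells but not by the same factor.

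The AGCAGCA miRNAs, which are known for holding back cell-cycle genes, were lower in A549 cells. miR-16-5p was counted 326 times in A549 and 2956 times in BEAS-2B cells at 5 ng/mL, and 533 and 1306 times at 1 ng/mL. The log2 ratios of -2.93 and -1.50 differed between doses by more than the 90th percentile given above, and the untreated value was -2.22. miR-15b-5p had log2 ratios of -1.66 at 5 ng/mL, -1.40 at 1 ng/mL and -1.83 without TGF-β1. miR-15a-5p did not reach the level threshold, with 7 and 95 counts at 5 ng/mL. miR-16-5p is made from hairpins at chr13:50048973-50049061, in an intron of DLEU2, and at chr3:160404745-160404825, in an intron of SMC4 that also holds miR-15b, and the mature counts cannot tell these sources apart. Of the 5 listed members of the family (with miR-195-5p and miR-497-5p), 4 were lower in A549 cells at 5 ng/mL, and the exception was miR-497-5p with 1 count in each line.

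Other BEAS-2B miRNAs without a seed partner among those above were also called at both doses. The hypoxia-associated miR-210-3p was counted 105 times in A549 and 996 times in BEAS-2B cells at 5 ng/mL, and 177 and 769 times at 1 ng/mL. Its log2 ratio was -2.07 without TGF-β1, -2.32 at 1 ng/mL and -2.99 at 5 ng/mL. A549 counts were the lower in each comparison, and the normalised level varied less across doses in BEAS-2B than in A549 cells. miR-152-3p, located in an intron of COPZ2 at chr17:48037161-48037247, had log2 ratios between -2.52 and -2.16 in the 3 comparisons. miR-3613-5p, from an intron of DLEU2, was counted 16 times in A549 and 273 times in BEAS-2B cells at 5 ng/mL against 56 and 234 at 1 ng/mL, and its log2 ratio moved from -1.58 without TGF-β1 to -2.25 and then -3.78. It was not tested without TGF-β1, where both levels lay below the threshold. Its GC content of 22.7% was the lowest among tested miRNAs with a sequence, a place it shared with miR-374a-3p.

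**Figure D2:**
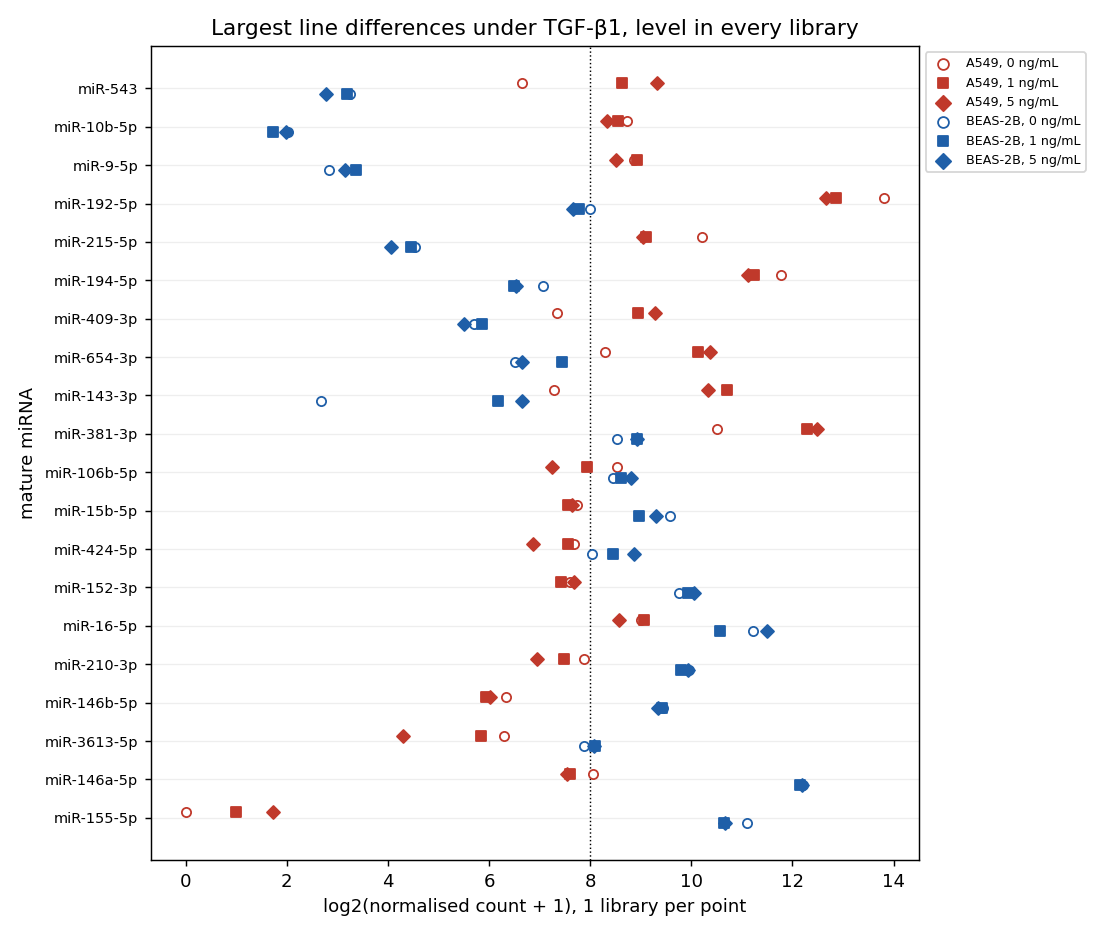
Level of the 10 miRNAs with the largest ratio in each direction at 5 ng/mL, among those called the same way at both doses; the x axis is log2(normalised count + 1) and each point is 1 library, open circles for 0, squares for 1 and diamonds for 5 ng/mL. Red (A549) and blue (BEAS-2B) treated points do not mix in any row, the dotted line is the level threshold of 8, and miR-106b-5p is the row whose untreated points nearly coincide.

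The cluster of miR-192-5p, miR-194-5p and miR-215-5p, which is linked to p53 and to gut, liver and kidney epithelium, stood out in A549 cells. miR-192-5p was counted 5545 times in A549 and 206 times in BEAS-2B cells at 5 ng/mL, 7408 and 189 times at 1 ng/mL, and 13886 and 331 times without TGF-β1. It was 31.8-fold higher in A549 cells at 5 ng/mL, 33.8-fold at 1 ng/mL and 56.5-fold without TGF-β1. miR-194-5p had log2 ratios of 4.59, 4.74 and 4.72 in the same order, and miR-215-5p had 4.99, 4.65 and 5.67. All 3 were higher in A549 cells in every comparison, and the order of their ratios differed between comparisons. They come from paired hairpins at chr11:64891137-64891439 (minus strand) and at chr1:220117853-220118241 (minus strand), and miR-194-5p is made at both. miR-215-5p amounted to 7.36% to 9.52% of miR-192-5p in all 6 libraries, although the lines differ more than 20-fold in both. Since only 2 bases separate the sequences, reads of miR-192-5p assigned to miR-215-5p could contribute to that ratio, which was not tested. The miR-34 members of the same list, also p53 targets, stayed below the level threshold. miR-34a-5p was counted 102 and 23 times without TGF-β1, 70 and 31 times at 1 ng/mL and 41 and 50 times at 5 ng/mL, with log2 ratios of 2.52, 0.95 and -0.04. It was thus on the A549 side without TGF-β1 and at the lower dose and level at the higher. miR-34c-5p had log2 ratios of 0.32, 0.21 and -1.08 in the same order.

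miRNAs encoded in the homeobox (HOX) clusters were higher in A549 cells, all 5 of 5 listed, at both doses and without TGF-β1. Beside this, the ratio was positive in 50.9%, 53.7% and 55.4% of all 397 miRNAs at 5, 1 and 0 ng/mL. miR-10b-5p was counted 277 times in A549 and 3 times in BEAS-2B cells at 5 ng/mL, 374 and 2 times at 1 ng/mL, and 407 and 4 times without TGF-β1. The log2 ratio at 5 ng/mL was 6.36 (interval 5.21 to 9.06) and at 1 ng/mL 6.83 (5.48 to 10.39). Its relative miR-10a-5p was abundant in both lines, with 4346 and 1457 counts at 5 ng/mL and a log2 ratio of 1.82. miR-10b-5p was therefore 5.03% to 6.38% of miR-10a-5p in A549 libraries and at most 0.206% in BEAS-2B libraries. miR-196a-5p had 126 and 4 counts at 5 ng/mL, miR-615-3p had 212 and 5, and miR-196b-5p had 41 and 0, for which the level was at least 16.2-fold higher in A549 cells. Only miR-10a-5p and miR-10b-5p reached an ND of 8 in a treated library, and the miR-10a hairpin lies at chr17:48579838-48579947 among HOXB genes and the miR-10b hairpin at chr2:176150303-176150412 in an intron of HOXD3.

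miR-9-5p, best known from neurons, was counted 314, 484 and 447 times in A549 cells at 5, 1 and 0 ng/mL and 8 times in every BEAS-2B library. Its log2 ratios were 5.37, 5.57 and 6.03. It is made from 3 hairpins, on chromosomes 1, 5 and 15, whose shares cannot be told apart from the mature counts. With miR-10b-5p and miR-543, it was 1 of 3 A549 miRNAs tested at both doses that had 10 or fewer counts in both treated BEAS-2B libraries. miR-155-5p was the only one of that kind in the other direction.

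The sensory and epithelial cluster of miR-183-5p, miR-96-5p and miR-182-5p was about equally higher in A549 cells in all 3 comparisons. miR-182-5p was counted 1925 and 560 times at 5 ng/mL and 2500 and 454 times at 1 ng/mL. The median log2 ratio of the cluster was 2.05 at 5 ng/mL, 2.30 at 1 ng/mL and 2.26 without TGF-β1. All 3 members were called higher in A549 each time, beside 38.4%, 38.5% and 40.7% of all tested miRNAs in the same order. In each comparison only 1 member reached an ND of 8 in both lines. The others were tested through A549 alone, which favours their direction, so nothing is read from this count. miR-126-3p, which lies in an intron of EGFL7 and is otherwise typical of endothelium, was counted 1166 and 197 times at 5 ng/mL, with a log2 ratio of 2.81 against 1.78 without TGF-β1.

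miR-143-3p, a smooth-muscle and mesenchymal miRNA, was higher in A549 cells while its counts were greater in the treated libraries of both lines. A549 cells gave 148 counts without TGF-β1, 1658 at 1 ng/mL and 1106 at 5 ng/mL. BEAS-2B cells gave 7, 62 and 101. The A549 count was above the BEAS-2B count in each comparison, with log2 ratios of 4.60, 4.52 and 3.69. Its cluster partner miR-145-5p stayed low, at 48 and 5 counts at 5 ng/mL, with a log2 ratio of 3.27. The miR-143 hairpin lies at chr5:149428918-149429023 in an exon of CARMN.

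The largest block of A549 miRNAs came from the imprinted DLK1-DIO3 region at 14q32, a long run of miRNA genes that is normally expressed from the maternal chromosome. All 11 tested members were called higher in A549 cells at each dose, set against 38.4% and 38.5% of all tested miRNAs. Only miR-381-3p reached an ND of 8 in both lines, so most of these calls rest on members that passed the filter through A549 alone. Over all 40 listed members, without a filter, 37 had a positive ratio at 5 ng/mL, 2 a negative one and 1 had no count. At 1 ng/mL these were 38, 1 and 1. At 5 ng/mL the summed normalised counts of the 40 were 14985 in A549 and 1439 in BEAS-2B cells. They were 12685 and 1594 at 1 ng/mL, and 4126 and 1308 without TGF-β1. The sum was thus about level in the BEAS-2B libraries and greater in both treated A549 libraries than in the untreated one.

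Most members of this region kept the direction of the untreated difference and exceeded its size. The test of a change of the line difference, described further on, rests on 1 untreated library per line. It passed, toward A549, for miR-127-3p, miR-370-3p, miR-381-3p, miR-409-3p, miR-411-5p and miR-493-3p. It did not pass for the other members fitted, miR-543 and miR-654-3p among them, so a greater ratio alone does not show a change. miR-543 was counted 550 times in A549 and 6 times in BEAS-2B cells at 5 ng/mL, 394 and 7 times at 1 ng/mL, and 95 and 11 times without TGF-β1. At 5 ng/mL its log2 ratio of 6.54 (interval 5.63 to 8.22) was the highest of all those called, against 3.40 (2.64 to 4.60) without TGF-β1. miR-381-3p, the most abundant member, was counted 4942 and 495 times, 5016 and 420 times, and 1398 and 477 times in the same order. All the BEAS-2B counts of miR-381-3p lay close together, and the 3 A549 counts were above them. miR-409-3p had log2 ratios of 3.78, 3.10 and 1.66, miR-654-3p of 3.71, 2.68 and 1.78, and miR-127-3p of 3.44, 3.28 and 2.01. The 6 tested members that fall into 1 stretch at chr14:101022066-101054759 on the plus strand (miR-379-5p, miR-411-5p, miR-543, miR-654-3p, miR-381-3p and miR-134-5p) had ratios from 2.12 to 6.54 at 5 ng/mL. Of the 27 members that averaged 10 or more normalised counts, the ratio was greater at both doses than without TGF-β1 in 26, against 42.1% of all 397 miRNAs with that mean. The mean includes the treated A549 libraries, where the summed level of the region was greatest, so this filter itself favours a greater treated ratio. Over all 40 listed members, without the filter, the ratio was greater at both doses in 31, and no such share over all miRNAs was computed. Among the others, miR-376c-3p went from 2.37 without TGF-β1 to -0.06 at 5 ng/mL, miR-377-3p from 2.63 to 0.75 and miR-410-3p from 1.65 to 0.47, all with 15 or fewer counts in every library. These shifts share the untreated libraries, and a shift of the line difference is by construction the difference of the responses in the lines. The region made up 11 of the 48 miRNAs higher in A549 at both doses (22.9%) and 11 of the 140 tested at both (7.86%), and since 10 of the 11 were tested only through their level in A549 cells, nothing is read from the absence of members on the BEAS-2B side.

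Of the 93 line differences called without TGF-β1, 50 (53.8%) were called in the same direction at both doses. They were 31 of the 55 higher in A549 (56.4%) and 19 of the 38 higher in BEAS-2B (50%). The untreated and treated comparisons have no library in common. A further 15 were called the same way at exactly 1 dose, 17 fell within 1.4-fold at both doses and 11 were in none of these classes. Among the 50, the ratio was larger in size at both doses than without TGF-β1 for 22 and smaller for 19. The reading of a typical miRNA moved from the untreated comparison by a median of 0.63 on the log2 scale at the higher dose, and by 0.36 at the lower, over 123 miRNAs tested in all 3. Across these, Spearman's rho with the untreated ratios was 0.699 at 5 ng/mL and 0.872 at 1 ng/mL, as a description.

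Whole profiles kept the lines apart at each dose. Over 397 miRNAs, Spearman's rho between A549 and BEAS-2B was 0.736 at 5 ng/mL, 0.774 at 1 ng/mL and 0.787 without TGF-β1. Within a line, the treated libraries were closer to each other, with 0.976 in A549 and 0.981 in BEAS-2B.

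**Figure D3:**
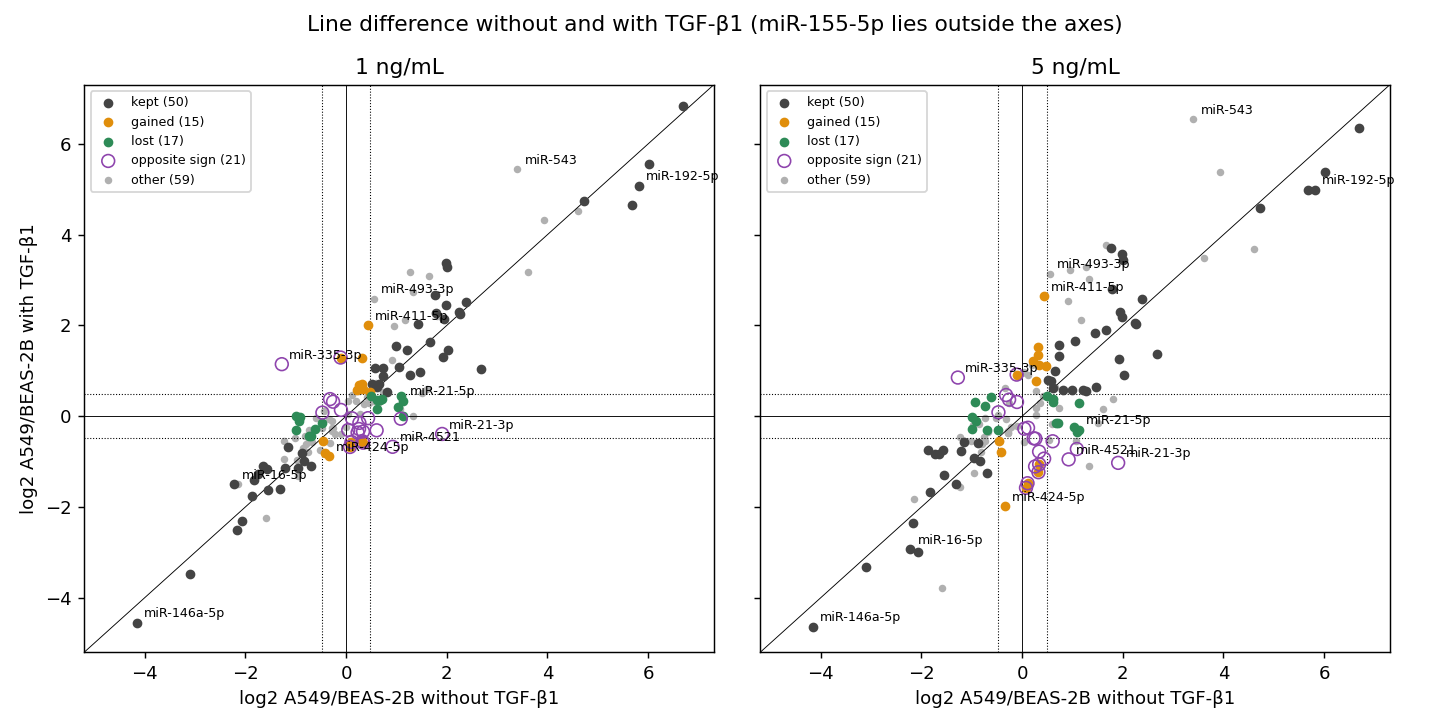
Log2 ratio A549 over BEAS-2B without TGF-β1 (x axis) and with it (y axis), at 1 ng/mL (left) and 5 ng/mL (right), for miRNAs tested in any comparison. Dark points (50) were called the same way in all 3 comparisons. Orange points (15) were within 1.4-fold without TGF-β1 and called the same way at both doses. Green points (17) were called without TGF-β1 and within 1.4-fold at both doses. Purple rings (21) mark an opposite sign at both doses. Dotted lines are 1.4-fold and the diagonal is an unchanged ratio, above which miR-543 and miR-493-3p lie.

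A line difference was gained, meaning within 1.4-fold without TGF-β1 and called the same way at both doses, for 15 miRNAs, 8 higher in A549 and 7 in BEAS-2B. Under the 5 other scalings 5 to 13 of the 15 stayed in this class. The test of a change of the line difference, described below, rests on 1 untreated library per line. It did not pass for miR-424-5p, miR-106b-5p, miR-340-5p or miR-30b-5p, and it passed for miR-20a-5p, miR-30a-3p and miR-411-5p. Membership of this class thus means crossing the threshold, and does not by itself show a change. The BEAS-2B side was led by miR-424-5p, a member of the AGCAGCA seed group from an X-linked cluster. It was counted 100 times in A549 and 474 times in BEAS-2B cells at 5 ng/mL, 188 and 302 times at 1 ng/mL, and 197 and 339 times without TGF-β1. Its log2 ratio was -1.99 at 5 ng/mL and -0.89 at 1 ng/mL, against -0.35. The A549 count was lowest and the BEAS-2B count highest at 5 ng/mL, and it stayed gained under 2 of the 5 other scalings. miR-106b-5p, from an intron of MCM7 at chr7:100093993-100094074, was counted 129 and 459 times at 5 ng/mL and 242 and 336 times at 1 ng/mL, and its log2 ratio went from 0.08 without TGF-β1 to -0.68 and -1.58, which stayed a gain under 4 of the 5. miR-340-5p had log2 ratios of 0.11, -0.57 and -1.48, and miR-30b-5p had 0.32, -0.55 and -1.23, in order of rising dose. On the A549 side, miR-411-5p of the DLK1-DIO3 region had 0.43, 2.01 and 2.65. A further 11 miRNAs called at both doses were neither kept nor gained. In 10 of them both untreated levels were below the threshold, with an untreated ratio already past 1.4-fold in the same direction, and miR-543 and miR-143-3p are among these.

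The oncogenic miR-17-92 cluster and its relative miR-106b-25, which drive proliferation, were on the BEAS-2B side at 5 ng/mL. Of all 397 miRNAs, 50.9% had a positive ratio at 5 ng/mL, with a median of 0.05. In the miR-17-92 cluster, 6 of 7 members had a negative ratio at that dose, with a median of -0.82. At 1 ng/mL 3 of 7 were negative and the median was 0.16, and without TGF-β1 it was 0.30. miR-17-5p was counted 345 and 883 times at 5 ng/mL, 550 and 580 times at 1 ng/mL, and 629 and 711 times without TGF-β1. miR-20a-5p was counted 541 and 1337 times, 732 and 951 times, and 915 and 978 times. The A549 counts of both were lowest and the BEAS-2B counts highest at 5 ng/mL. miR-92a-3p of the same cluster went the other way, with a log2 ratio of 0.39. In the miR-106b-25 cluster, 3 of 4 members were called higher in BEAS-2B at 5 ng/mL and 2 of 4 at 1 ng/mL, beside 29.5% and 25.9% of all tested miRNAs. The sign of the miR-17-92 median at 1 ng/mL depends on the scaling, being -0.12 under quantile normalisation.

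Differences that were lost came to 17, of which 9 had been higher in A549 and 8 in BEAS-2B. A change of the line difference was not shown for the lost miRNAs in the test described below, so this class rests on the threshold. Membership of this class depends on the scaling, since 4 to 16 of the 17 stayed in it under the 5 others. miR-21-5p, miR-374a-5p, miR-1291 and miR-185-5p did so under 3 each, and miR-16-2-3p under all 5. The dominant miR-21-5p, a miRNA raised in fibrosis and cancer, was among them. It was counted 301167 and 438582 times at 5 ng/mL, 511881 and 350475 times at 1 ng/mL, and 419780 and 260388 times without TGF-β1. Its log2 ratio went from 1.12 without TGF-β1 to 0.34 at 1 ng/mL and -0.29 at 5 ng/mL. miR-374a-5p had 1.10, 0.46 and -0.35, and miR-1291 had 1.03, 0.19 and -0.24, in the same order. On the BEAS-2B side, miR-16-2-3p had -0.94, -0.10 and 0.30, and miR-185-5p had -0.62, -0.28 and 0.43. miR-16-2-3p thus came level between the lines while miR-16-5p, made from that hairpin and from another, was lower in A549 cells at both doses. The mature counts cannot tell the sources of miR-16-5p apart, so no difference between arms is read from this.

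For 21 of the 157 miRNAs tested in any comparison, the untreated ratio had the opposite sign to that at both doses. Under the 5 other scalings 8 to 20 of the 21 stayed in this class. Whether the line difference itself changed was tested with edgeR's quasi-likelihood test over all 6 libraries, added after the data had been seen, which takes the doses as samples of 1 condition and rests on 1 untreated library per line. It called 16 of 397 miRNAs (4.03%), 9 (2.27%) shifted toward A549 and 7 (1.76%) toward BEAS-2B, and 71 had an unadjusted p under 0.05. Among the 21 it called miR-335-3p and miR-21-3p (adjusted p = 0.00231 each), miR-4521 (adjusted p = 0.00989), miR-374b-5p and miR-30a-3p (adjusted p = 0.0349 each) and miR-20a-5p (adjusted p = 0.0424). In 15 of them A549 was higher without TGF-β1 and BEAS-2B with it. miR-4521 was the only one past 1.4-fold and at the level threshold in all 3 comparisons. It was counted 471 and 335 times without TGF-β1, 249 and 345 times at 1 ng/mL, and 211 and 485 times at 5 ng/mL, so the higher line changed from A549 to BEAS-2B. Its log2 ratios were 0.92 (interval 0.72 to 1.13), -0.67 (-0.92 to -0.44) and -0.95 (-1.19 to -0.72). The gene lies at chr17:8186945-8187004 on the plus strand with no other annotated gene on that strand.

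miR-21-3p, the passenger strand of the miR-21 hairpin, was counted 258 and 92 times without TGF-β1, 210 and 239 times at 1 ng/mL, and 131 and 318 times at 5 ng/mL. The A549 count was lower and the BEAS-2B count higher at each greater dose, and the log2 ratio went from 1.91 to -0.39 and -1.03. miR-374b-5p had 1.09, -0.05 and -0.72, and its interval at 1 ng/mL (-0.28 to 0.17) included no difference. It lies opposite miR-374c-3p, and the 2 cannot be told apart where strand was not used in counting. miR-339-5p had 0.61, -0.31 and -0.55.

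miR-335-3p, which the study selected on these libraries and is therefore no independent choice, changed the other way. In BEAS-2B cells it was counted 1174 times without TGF-β1, 117 times at 1 ng/mL and 135 times at 5 ng/mL, and in A549 cells 358, 300 and 206 times. The untreated BEAS-2B library was thus the high one of the 6. The log2 ratio without TGF-β1, at -1.28 (interval -1.45 to -1.11), was negative. At 1 ng/mL it was 1.15 (0.84 to 1.47). The ratio of 0.85 (0.54 to 1.18) at 5 ng/mL was not called, because the level was below the threshold in both lines. The opposite arm, miR-335-5p, was lower in A549 cells in all 3 comparisons, with 39 and 317, 39 and 73, and 22 and 101 counts, and log2 ratios of -2.56, -1.09 and -1.91. Their gene is at chr7:130496111-130496204 in an intron of MEST, an imprinted gene. Within a library, the 3p arm had 9.36 counts for each count of the 5p arm in the A549 library at 5 ng/mL and 7.69 in that at 1 ng/mL. The corresponding BEAS-2B values were 1.34 and 1.60, against 3.70 without TGF-β1. These within-library arm ratios do not depend on the scaling between libraries.

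**Figure D4:**
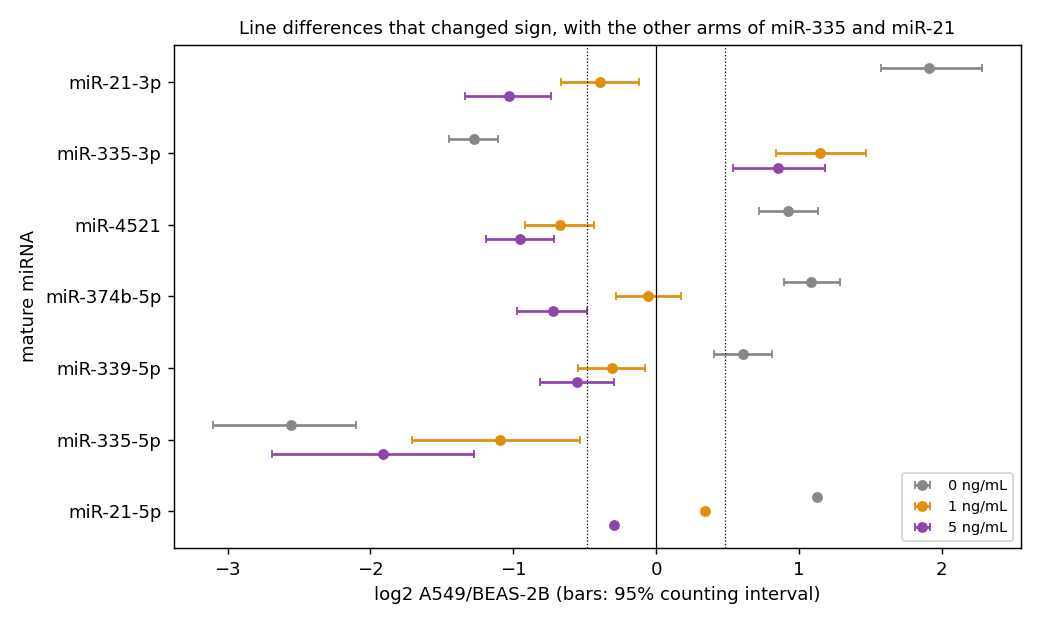
Log2 ratio A549 over BEAS-2B (x axis) at 0 (grey), 1 (orange) and 5 ng/mL (purple) for 5 miRNAs that changed sign and for miR-335-5p and miR-21-5p, the other arms of 2 of them; bars are 95% counting intervals from 1 library per line. miR-335-3p moved from negative to positive while miR-335-5p stayed negative, and the other 4 moved from positive to negative.

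The same comparison of arms was made for the 80 hairpins in which each arm averaged 10 or more normalised counts. Both arms had the same sign at both doses in 56 and opposite signs at both doses in 10. Only miR-335 and miR-425 had arms past 1.4-fold in opposite directions at both doses. At 5 ng/mL, miR-425-5p had a log2 ratio of 0.77 and miR-425-3p, which was below the level threshold, one of -0.84. miR-424-5p and miR-424-3p parted at 5 ng/mL alone, at -1.99 and 0.30.

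Some miRNAs with a shared seed were held by different lines. The let-7 family, a repressor of growth and of embryonic genes, shared the seed GAGGUAG, and 8 of its members were tested. let-7i-5p, the second most abundant miRNA of A549 cells, was counted 50834 and 16180 times at 5 ng/mL and 59819 and 16729 times at 1 ng/mL, with log2 ratios of 1.90 and 1.63. let-7b-5p and let-7d-5p went the other way at both doses, at -1.30 and -0.74 at 5 ng/mL and -1.63 and -1.75 at 1 ng/mL. These sequences differ by few bases, so reads may have been split between members. The same opposition was found for seed CAGUGCA, where miR-148a-3p had 1.36 and miR-152-3p -2.36 at 5 ng/mL, and for ACCCGUA, where miR-99b-5p had 1.01 and miR-99a-5p -0.84. Of 20 seeds shared by 2 or more tested miRNAs with a matched sequence, these 3 were the ones with calls in both directions. Tested miRNAs without a matched sequence were left out of this count. Among these were miR-30b-5p and miR-30d-5p of the miR-30 family, which were called in opposite directions at both doses.

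The miR-99a, miR-100 and miR-125b miRNAs, which include brakes on growth-factor signalling, were lower in A549 cells. Their median ratio was less negative at each dose than without TGF-β1, a comparison that rests on 1 untreated library per line. The test of a change of the line difference did not pass for miR-99a-5p or miR-125b-5p. Of the 7 listed, 1 had a positive ratio at 1 ng/mL, and it averaged below 10 normalised counts. miR-125b-5p was counted 2530 and 5338 times at 5 ng/mL, 2696 and 5648 times at 1 ng/mL, and 1767 and 7980 times without TGF-β1. miR-100-5p was counted 18675 and 32165 times, 24569 and 29501 times, and 14261 and 38938 times. BEAS-2B counts were the higher in each comparison. All 6 members with a mean of at least 10 had a ratio nearer to A549 at both doses than without TGF-β1, against 42.1% of all 397 miRNAs. The median of the 6 went from -1.40 to -0.75 at 1 ng/mL and -0.68 at 5 ng/mL. Of 5 tested members, 4 were called higher in BEAS-2B at the lower dose and 3 at the higher, beside 25.9% and 29.5% of all tested.

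The miR-23/27/24 clusters and the miR-30 family were mixed. miR-27b-3p was kept as higher in A549, at 1.47, 0.97 and 0.65 from 0 to 5 ng/mL, whereas miR-27a-3p, which differs from it by 1 base, had -0.47, 0.08 and 0.09. The other arm of that hairpin, miR-27a-5p, was counted 1385 and 649 times at 5 ng/mL and 1070 and 564 times at 1 ng/mL, and was gained on the A549 side with log2 ratios of 1.34 and 0.72. In the miR-30 family, miR-30a-3p had 0.92 and miR-30b-5p -1.23 at 5 ng/mL, and 2 members were called in each direction. Of the pair miR-221 and miR-222, miR-221-3p was lower in A549 cells, with log2 ratios of -0.91 and -1.15 at 5 and 1 ng/mL, while miR-222-3p lay within 1.4-fold.

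Among 11 miRNAs listed as raised by TGF-β1, the line difference was called in both directions at each dose, 1 higher in A549 (miR-143-3p) and 3 higher in BEAS-2B of 9 tested. The latter share is close to the 25.9% and 29.5% of all tested miRNAs. The BEAS-2B side at 5 ng/mL was miR-155-5p, miR-424-5p and miR-21-3p. miR-181a-5p and miR-181b-5p were within 1.4-fold at both doses, at -0.31 and -0.25 at 5 ng/mL, and so was miR-455-5p at 0.37. The ratio was smaller at both doses than without TGF-β1 in 7 of the 10 members with a mean of at least 10, against 139 of all 397 miRNAs. The 7 miRNAs selected by the study split into 2 called higher in A549 and 3 in BEAS-2B of 6 tested at 5 ng/mL, and they were chosen on these libraries, so their directions are no independent evidence.

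**Figure D5:**
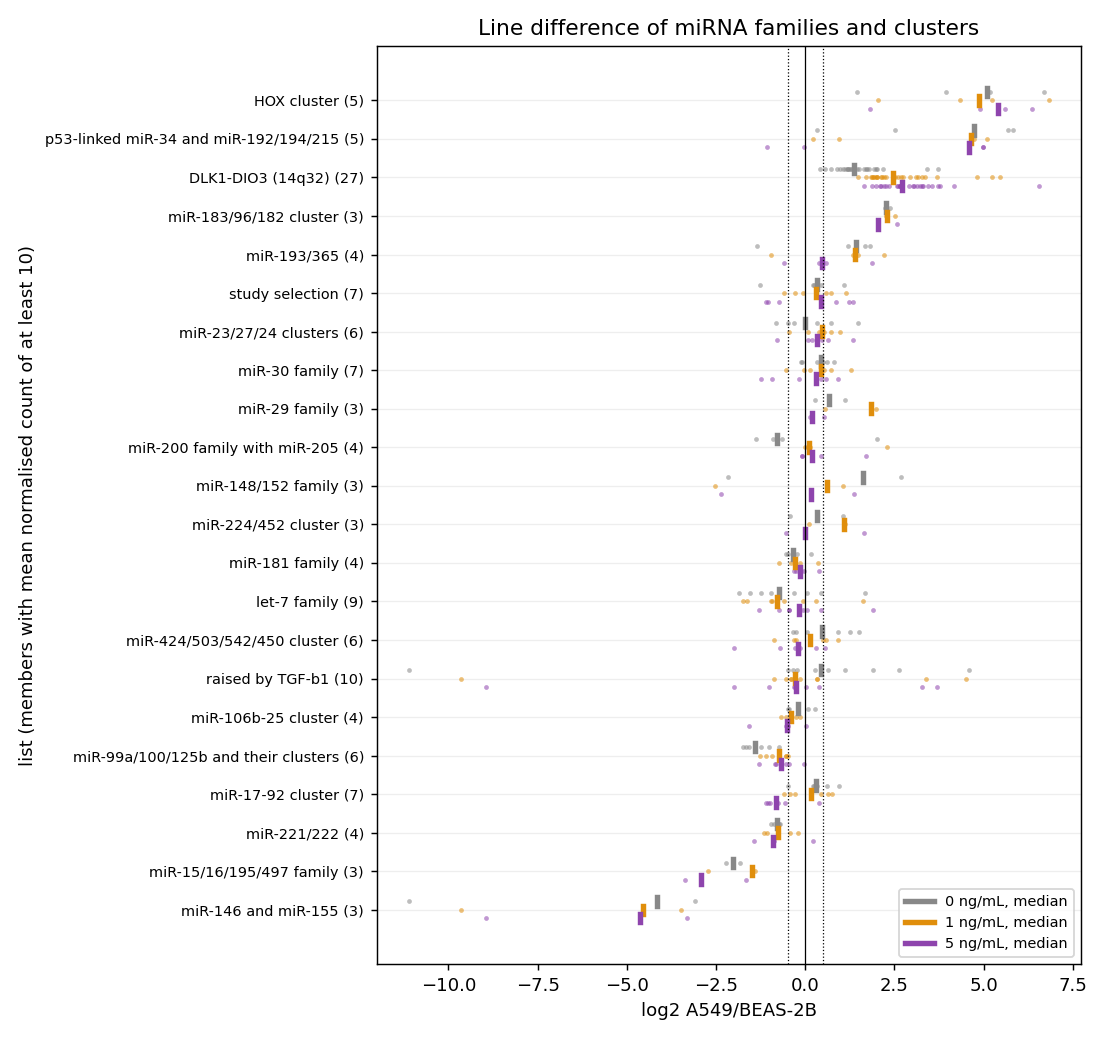
Log2 ratio A549 over BEAS-2B for miRNA families and clusters with at least 3 members of sufficient level; each dot is 1 member, thick ticks are medians, and grey, orange and purple stand for 0, 1 and 5 ng/mL. The medians of the HOX, p53-linked and DLK1-DIO3 lists lie to the right of 0 and those of the miR-15 and miR-146 lists to the left at every dose; dotted lines mark 1.4-fold.

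The epithelial label was checked against the miR-200 family, which holds the epithelial state, with miR-205-5p. Their summed normalised counts were 228 to 386 in A549 and 325 to 363 in BEAS-2B libraries, and 0 of 6 were tested at 5 ng/mL. miR-200b-3p was counted 204 and 259 times at 5 ng/mL, and miR-205-5p was at 0 to 2 counts in every library. miR-200b-3p reached the level threshold without TGF-β1 and at 1 ng/mL. It was called lower in A549 cells without TGF-β1, with a log2 ratio of -0.92, and was level at 1 ng/mL (-0.01) and at 5 ng/mL (-0.10). It was counted 139, 271 and 204 times in A549 cells at 0, 1 and 5 ng/mL, and its normalised count in BEAS-2B cells was 254 to 274. The list had 4 members with a mean of at least 10, and they were mixed in direction. The ratio was positive for 1 of them without TGF-β1, for 3 under the lower dose and for 2 under the higher. The largest log2 ratio among the 4 lay on the A549 side throughout, with values of 2.02, 2.30 and 1.71 by rising dose. The summed level of these markers was thus low in both lines, and that of miR-200b-3p was greater in the treated A549 libraries than in the untreated one. Of markers for other cells, miR-223-3p, miR-133a-3p, miR-206 and miR-214-3p had no count in any library. The 7 haematopoietic markers summed to 8.10 to 30.8 normalised counts, so that the defining markers of blood cells were near 0 in the BEAS-2B libraries in which miR-155-5p was high. The mesenchymal markers summed to 8.32 in untreated and to 58.2 and 71.3 in treated A549 cells, nearly all of it miR-145-5p, and to 6.15 to 12.7 in BEAS-2B cells. The markers miR-126-3p and miR-9-5p are those described above for A549 cells, where a part of other cells in them was not tested. The placental and stem-cell clusters C19MC and miR-371 to miR-373 had 0 members with a mean of at least 10.

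Position and base composition were described for the called miRNAs. Of 20 genomic clusters of tested miRNAs within 10 kb of each other, found among the 130 tested at both doses that had a position, 4 had all members called one way at both doses, and they held the miR-192, miR-215, miR-182 and DLK1-DIO3 miRNAs, all higher in A549. The miR-192 and miR-215 clusters both count miR-194-5p, so they are not separate observations. Of the 20, only the cluster of miR-424, miR-503 and miR-450 on the X chromosome had calls in both directions. There miR-450a-5p was on the A549 side and miR-424-5p on that of BEAS-2B. Tested miRNAs without a position, such as miR-30b-5p and miR-30d-5p, could not be placed in a cluster. The median GC content was 47.6% for the miRNAs higher in A549 at both doses, 44.5% for those higher in BEAS-2B and 47.8% for the rest. Across 130 miRNAs, the GC content had a Spearman's rho of 0.27 with the shift of the ratio from 0 to 5 ng/mL and of 0.20 with that to 1 ng/mL. Gained miRNAs had a median GC content of 50% on the A549 side and 37.7% on the BEAS-2B side, and the part of base composition in the gained differences was not tested.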

How the data were processed

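Small RNA libraries were made by the submitters from total RNA of A549 and BEAS-2B cells with a kit for small RNAs, and the authors deposited whole-number counts for each mature miRNA, not normalised, in 1 file per sample. The submitters' processing notes name Bowtie2 and bedtools. Their versions, the genome build, the miRNA annotation and the use of strand are not given in the sources used here. Groups were taken from the sample titles, and each had 1 library.

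The study's thresholds for ND (8) and fold change (1.4) were applied to TMM-normalised counts (edgeR 4.0.16 in R 4.3.3), scaled to the mean effective library size of 749498 with a pseudocount of 1. The greater ND of the pair had to reach 8. Log2 ratios were set beside exact 95% Clopper-Pearson intervals, with no p-value. Tests added after the data had been seen used edgeR's quasi-likelihood fit over the 397 miRNAs with a mean normalised count of at least 10, for the line term with dose as a block (4 treated libraries, or all 6) and for the change of the line difference under TGF-β1, with Benjamini-Hochberg adjustment. A count of 0 was taken to allow 3 counts in that library. Total counts of 633318 to 900424 put this floor at 2.31 to 3.49 normalised counts.

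The miRNAs and the 30 lists were chosen with earlier results of these data known. The rule named the 10 largest ratios in each direction at 5 ng/mL among miRNAs called the same way at both doses, up to 10 with an opposite sign that were past 1.4-fold without TGF-β1 and at 1 dose or more, the 5 largest gained and lost by the size of the shift, list members, both arms of miR-335, the 5 most abundant per treated library and the other arms of these. Other miRNAs named were chosen after their values were seen.

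List medians covered members with a mean normalised count of at least 10. Sequences and positions were matched by name to RefSeq (GRCh38.p14; 147 of the 157 miRNAs that reached an ND of 8 in any library) and host genes to GENCODE 29. Clusters joined hairpins, or mature positions where no hairpin was listed, up to 10 kb apart. The procedure was tested on simulated counts. Alternatives were DESeq2 1.42.0 size factors, total count, TMM within each pair, no scaling, quantile normalisation (limma 3.58.1), other ND and fold thresholds, an interval wholly beyond 1.4-fold, other pseudocounts and, added after the data were seen, summing of opposite-strand partners. Other steps used Python 3.11.15 with scipy 1.17.1, numpy 2.4.6 and pandas 2.3.3.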

Additional observations from a re-analysis of the deposited data

Results flagged for a closer look

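For 21 miRNAs the line difference without TGF-β1 had the opposite sign to that at both doses. With 1 untreated library per line and the doses taken as samples of 1 condition, edgeR's quasi-likelihood test of the change of the line difference passed at an adjusted p under 0.05 for 6 of the 21, which are miR-335-3p, miR-21-3p, miR-4521, miR-374b-5p, miR-30a-3p and miR-20a-5p. For the other 15 a change was not shown. In the following, the value is the log2 ratio A549 over BEAS-2B at 5 ng/mL.

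In 15 of them A549 was the higher line without TGF-β1 and BEAS-2B with it. miR-17-5p (-1.11), miR-20a-5p (-1.06), miR-93-5p (-0.49) and miR-106b-5p (-1.58) carry the same seed. miR-30b-5p (-1.23), miR-30e-5p (-0.93) and miR-340-5p (-1.48) also ended past 1.4-fold. miR-21-3p (-1.03), miR-4521 (-0.95), miR-374b-5p (-0.72) and miR-339-5p (-0.55) had been past 1.4-fold on the A549 side. The others were miR-107 (-0.25), miR-503-5p (-0.27), miR-140-3p (-0.78) and miR-361-3p (-0.49).

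In 6 of them BEAS-2B was the higher line without TGF-β1. miR-335-3p (0.85) and miR-30a-3p (0.92) ended past 1.4-fold on the A549 side. miR-24-3p (0.47) and miR-3074-5p (0.37) come from opposite strands of 1 locus and are no separate observations where strand was not used. miR-27a-3p (0.087) and miR-30e-3p (0.31) were small in both directions.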

How the results depend on the processing

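Depth does not limit the abundant miRNAs, but miRNAs with a few counts in 1 line have wide intervals, and the spread between cultures is unknown. The labels gave no replicate numbers, so lines were paired by dose only, in tests chosen after seeing the data. With dose as a block, the line term passed for 75 of the 140 miRNAs tested at both doses over the 4 treated libraries and for 78 over all 6, against 76 called by fold. Of the 76, which were themselves chosen by ratios in the treated libraries, 74 and 69 passed. The change of the line difference passed for 6 of the 21 opposite signs. No library was left out, since each group had 1. No called ratio of a named miRNA changed sign under another scaling or pseudocount, though 122 of 560 such values moved beyond their counting interval, as did 66 of 308 list medians. Other scalings moved the median ratio of all miRNAs: total count moved it by -0.52 without TGF-β1 and by -0.24 at 1 ng/mL, no scaling by -0.42, 0.20 and -0.25 at 0, 1 and 5 ng/mL, and quantile normalisation, which moves each miRNA by its own amount, by -0.33, -0.33 and -0.23. The split at 1 ng/mL, 55 higher in A549 and 37 in BEAS-2B, became 37 and 54 with total count, 44 and 50 with quantile normalisation and 70 and 25 without scaling. At 5 ng/mL the split of 56 and 43 turned toward BEAS-2B under 2 scalings, with 45 and 58 without scaling and 45 and 59 with quantile normalisation. Without TGF-β1, total count gave 34 higher in A549 and 70 in BEAS-2B, no scaling 37 and 64, and quantile normalisation 46 and 48. The 21 opposite signs became 21 to 27 under the 5 other scalings, of which 8 to 20 were shared. miR-335-3p, miR-21-3p, miR-4521 and miR-339-5p were opposite in all 5 and miR-374b-5p in 4. Of the 50 kept differences 37 to 49 were shared, of the 17 lost 4 to 16 and of the 15 gained 5 to 13.

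With an ND of 9, the count at 5 ng/mL was 28 higher in BEAS-2B, at 1 ng/mL 24, and without TGF-β1 36 higher in A549, with 48 at both doses, 10 lost and 8 gained. With an ND of 8 in both libraries, 50 were called at 5 ng/mL (28 in A549, 22 in BEAS-2B), 48 at 1 ng/mL (26 and 22) and 58 without TGF-β1 (32 in A549), with 34 at both doses, 25 kept and 8 gained. With a mean of 10 in place of the ND, the counts were 283 (154 and 129), 269 (148 and 121) and 265 (154 and 111), with 209 at both doses, 153 kept, 37 lost, 38 gained and 57 opposite. With a fold of 2, they were 60 (21 in BEAS-2B), 55 (17) and 55 (36 and 19), with 42 at both doses, 28 kept and 6 gained. With an interval wholly beyond 1.4-fold, 8 were gained. These follow from fewer or more miRNAs passing, and other causes were not tested. The remaining 137 values of this kind stayed within 1.5 times, as did all 14 after summing opposite-strand partners, which was chosen after seeing the data. Medians of lists kept their sign except for 7 under some scaling, among them the miR-200 family at both doses.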
